A study of Homo sapiens with 2 samples.

Results

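The 102 genes described here encode the keratins, claudins, connexins and the membrane, scaffold, polarity and plaque proteins of tight junctions and desmosomes, out of 18417 genes with a probe set of their own on the array. The rule takes genes by symbol, with no level or difference in it, although the families were picked with earlier results of these data known: keratins (KRT followed by a digit, KRT19 left out), claudins (CLDN), connexins (GJA, GJB and GJC), TJP, CGN, CGNL1, MARVELD, JAM, PARD3 and PARD6 genes, plakophilins (PKP), JUP and DSP. Pseudogenes and keratin-associated proteins were left out. OCLN and F11R are also covered by that choice but had no single-gene probe set in the annotation used, and were not analysed here. The cells were Huh-7, a long-established line from a human liver tumour (hepatocellular carcinoma), profiled on 2 arrays. One culture had received DEPDC1 siRNA and the other NC, as the labels call the control transfection. The siRNA label gives 72 h, the NC label names only the control, and 72 h was taken for both. The number and sequence of the siRNAs are not given in the sources used here. Each group had 1 array, so the differences could not be checked against replicates, no p-value is given, and every statement describes these 2 arrays. The level of the siRNA target DEPDC1 was 5.15 in the siRNA array and 7.82 in the NC array, that is 6.37-fold lower (log2 difference -2.67).

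Keratins are intermediate filament proteins that assemble from a type I and a type II partner, and KRT18 with KRT8 is the pair of simple epithelia and of hepatocytes. Claudins are membrane proteins that seal or open the paracellular space at tight junctions, where TJP and cingulin scaffolds tie them to actin and the PARD proteins help set apical polarity. Connexins form gap junction channels between cells, and desmosomal plaque proteins (plakophilins, plakoglobin and desmoplakin) anchor keratin filaments at the membrane. In bile-forming liver cells these junctions separate the canaliculus from the blood side.

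All values are deposited log2 expression values, and differences are siRNA minus NC. Genes with at least 1 array at or above 4.66, the median over the probe sets of both arrays, were called detected. No background level was available in the sources used here, so this threshold is arbitrary. Of the 102 genes, 42 were detected and 60 were not, against 11352 of all 18417 genes. Levels of different genes come from different probe sets, so they sort genes by signal but do not rank transcript amounts. In bulk RNA, fewer cells of a type and less RNA per cell cannot be told apart.

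GJA1, a connexin, stood out from the other detected members. It was the 1 member at least 2-fold higher in the siRNA array, and no member was at least 2-fold lower. Over the detected genes as a whole, 1.94% were past 2-fold upward and 0.863% past it downward. At 1.5-fold, 4 of the 42 were higher (GJA1, PKP2, KRT18 and CLDN6) and none lower, KRT18 by 1 of its 2 probe sets, beside 6.03% and 3.74% of all detected genes, so the members' counts lay near the background in both directions. The median difference was 0.01 over the detected members and 0.00 over all detected genes, with 21 members higher and 21 lower (49.9% and 48.1% of all detected genes). Probe sets of the same gene served as a rough gauge. Their differences had a range with a median of 0.12 and a 90th percentile of 0.44 over 392 genes. Of the 42 detected members, 34 differed by less than that 90th percentile. The gauge also holds differences between the probe sets themselves. It holds no spread between cultures, so it cannot show which members would differ again.

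**Figure D1:**
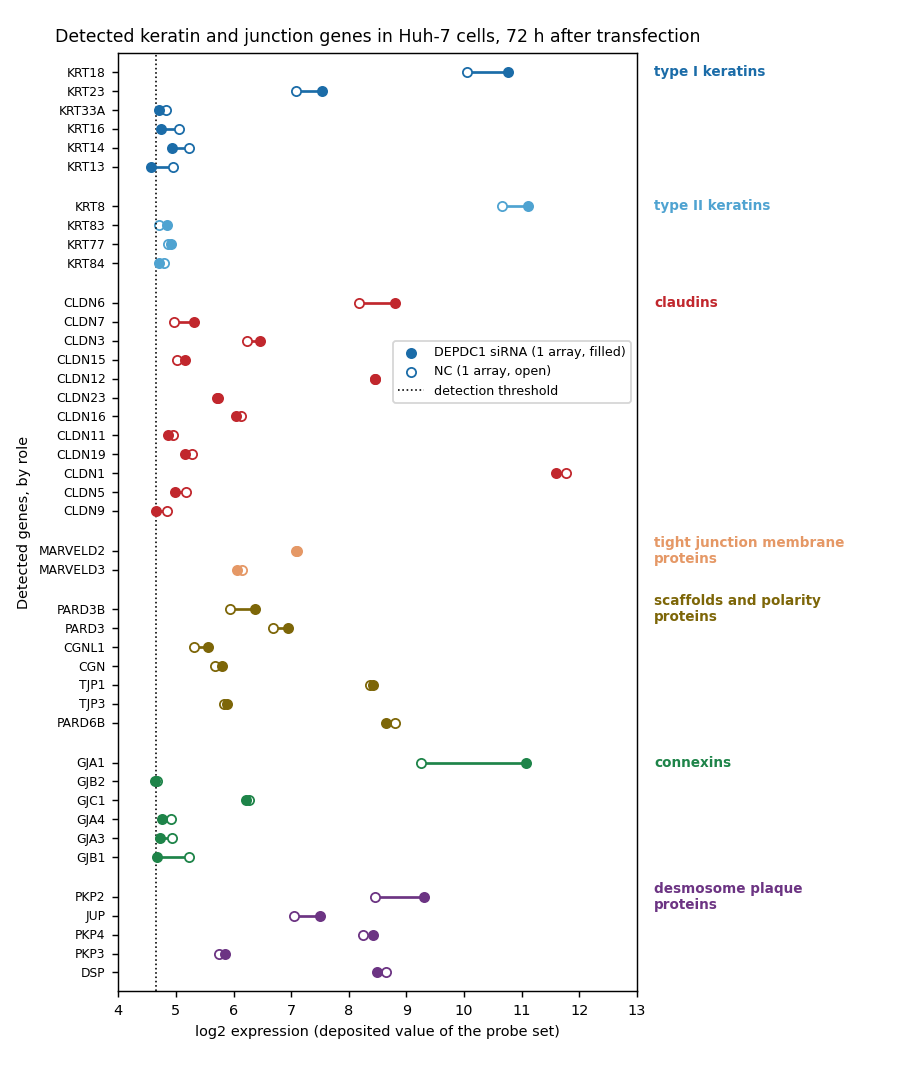
Log2 expression of the 42 detected genes in the DEPDC1 siRNA array (filled circles) and the NC array (open circles), grouped by role. Each circle is 1 array and the dotted vertical line is the detection threshold of 4.66. The longest connecting line is that of GJA1, at 11.07 in the siRNA array and 9.25 in the NC array, while most pairs of circles touch or nearly touch.

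The promoters of both connexins with the largest differences and of CLDN6 are shown because these genes lie at the ends of their families. The sequences are the 250 bases before the annotated start, 5′ to 3′ on the gene's strand, from RefSeq on GRCh38.p14. Capitals mark matches, on either strand, to any of 5 short motifs, named with their letters after the sequences.
GJA1, chr6:121435396-121435645, plus strand: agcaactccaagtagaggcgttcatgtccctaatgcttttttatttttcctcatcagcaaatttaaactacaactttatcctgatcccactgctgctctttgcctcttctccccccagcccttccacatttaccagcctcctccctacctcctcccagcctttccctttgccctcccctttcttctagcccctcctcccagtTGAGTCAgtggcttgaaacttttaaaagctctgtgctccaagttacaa
GJB1, chrX:71214989-71215238, plus strand: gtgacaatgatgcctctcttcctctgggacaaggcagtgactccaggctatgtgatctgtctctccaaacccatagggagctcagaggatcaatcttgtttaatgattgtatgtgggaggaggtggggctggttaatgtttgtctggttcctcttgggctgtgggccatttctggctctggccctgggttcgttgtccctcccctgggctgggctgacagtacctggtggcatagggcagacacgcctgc
CLDN6, chr16:3018184-3018433, minus strand: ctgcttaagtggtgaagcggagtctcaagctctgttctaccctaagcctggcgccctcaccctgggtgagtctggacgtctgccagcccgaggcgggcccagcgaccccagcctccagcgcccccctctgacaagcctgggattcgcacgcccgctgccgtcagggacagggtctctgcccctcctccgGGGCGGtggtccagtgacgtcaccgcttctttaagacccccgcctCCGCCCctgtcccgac
The GJA1 window held 1 match, to the letters TGANTCA bound by AP-1 factors, between 48 and 42 bases before the start. These letters were in 6.60% of all 27305 promoter windows and in 3 of the 24 detected members with a window (GJA1, CLDN15 and CLDN16). CLDN15 and CLDN16 differed by 0.13 and -0.09. The CLDN6 window held 2 matches to the GC box GGGCGG, which occurred in 42.3% of all windows and in 16 of the 24. The GJB1 window held none of the 5 motifs. The letters GGAATG, bound by TEAD factors, were in 11.9% of all windows and in 1 of the 24, GJA3. The E-box CAGGTG was in 17.5% of all windows and in 4 of the 24. The TATA box TATAAA was in 11.1% of all windows and in 2 of the 24, KRT33A and KRT84. Such matches are descriptions of letters and not measured binding. KRT18 and PKP2 had no entry in the promoter table.

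The connexins differed most among themselves. GJA1, the connexin of heart, fibroblasts and many cultured lines, had 11.07 in the siRNA array and 9.25 in the NC array, a difference of 1.82 or 3.53-fold higher. It ranked 42nd from the top of the 11352 detected genes, of which 0.37% had a difference as high. GJB1, the main connexin of hepatocytes, had 4.67 in the siRNA array and 5.22 in the NC array, a difference of -0.55 or 1.47-fold lower. Of all detected genes, 4.36% were as low, and its siRNA value lay at the threshold, where background compresses differences. The 2 connexins thus lay on opposite sides of 0. GJB2, the second connexin of hepatocytes, had 4.64 in the siRNA array and 4.67 in the NC array. GJC1, a connexin of muscle and early heart, had 6.21 in the siRNA array and 6.26 in the NC array. GJA3 (lens) differed by -0.20 and GJA4 (vascular endothelium) by -0.15. The median of the 6 detected connexins was -0.10, with 1 higher and 5 lower, beside 49.9% and 48.1% of all detected genes. The other 6 connexins were not detected and differed by -0.19 to 0.08.

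Among the keratins, the simple epithelial pair was higher in the siRNA array. KRT18 had 10.76 in the siRNA array and 10.05 in the NC array, a difference of 0.71 or 1.64-fold higher. A second KRT18 probe set gave a difference of 0.40, with 9.90 in the siRNA array and 9.50 in the NC array. KRT18 has near-identical pseudogene copies whose transcripts its probe sets can share. The size of its difference is therefore uncertain, and these 2 values do not bound it. The 1.64-fold value comes from the probe set with the higher mean, and the other gave 1.32-fold. KRT8, its type II partner, had 11.12 in the siRNA array and 10.66 in the NC array, a difference of 0.45 or 1.37-fold higher. Both KRT18 probe sets and KRT8 were thus higher, by 0.40 to 0.71. KRT23, another type I keratin, had 7.53 in the siRNA array and 7.09 in the NC array, a difference of 0.45. These were the 3 keratins more than 1 log2 unit above the threshold.

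The remaining detected keratins had values close to the threshold. KRT14, the basal keratin of stratified epithelia, had 4.92 in the siRNA array and 5.23 in the NC array. KRT16, a keratin of activated epidermis, had 4.75 in the siRNA array and 5.05 in the NC array. KRT14 and KRT16 are close in sequence, so their probe sets can share signal. KRT13, of mucosal epithelia, had 4.56 in the siRNA array, under the threshold, and 4.94 in the NC array. These 3 were lower by 0.30 to 0.38 and the hair keratin KRT33A by 0.13. Among type II keratins, KRT77 had 4.91 in the siRNA array and 4.87 in the NC array. KRT83, a hair keratin, had 4.84 in the siRNA array and 4.71 in the NC array, and KRT84 differed by -0.08. The medians were -0.22 over 6 detected type I keratins and 0.08 over 4 detected type II keratins. Of the 46 keratins, 36 were not detected, among them KRT5, KRT7, KRT10 and KRT20. These differed by -0.57 to 0.19, the lowest being KRT1, a keratin of differentiating epidermis, with 3.41 in the siRNA array and 3.98 in the NC array. The symbol rule also took in KRT222 and the antisense RNA KRT10-AS1, neither of them detected. KRT222 had 2.66 in the siRNA array and 2.46 in the NC array.

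Most claudins differed little. CLDN6, a claudin of embryonic epithelia and some tumours, was the 1 claudin past 1.5-fold, with 8.80 in the siRNA array and 8.17 in the NC array, a difference of 0.62 or 1.54-fold higher. Its close paralog CLDN9 had 4.65 in the siRNA array and 4.85 in the NC array. The paralogs thus differed in opposite directions, CLDN9 with values around the threshold. CLDN1, a barrier claudin of liver and skin, had 11.59 in the siRNA array and 11.77 in the NC array, a difference of -0.18. CLDN12 had 8.45 in both arrays. CLDN7 and CLDN3, barrier claudins of simple epithelia, differed by 0.36 and 0.24. Of 12 detected claudins, 4 were higher and 8 lower, beside 49.9% and 48.1% of all detected genes. Their median was -0.06, with a range of -0.20 to 0.62. The other 11 claudins were not detected and differed by -0.23 to 0.26. They include CLDN2, a channel-forming claudin of leaky epithelia, at 3.79 in both arrays, and CLDN14, at 3.58 in the siRNA array and 3.70 in the NC array.

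The other tight junction membrane proteins, the scaffolds and the polarity proteins stayed under 1.5-fold. MARVELD2 (tricellulin), the protein of contacts where several cells meet, had 7.11 in the siRNA array and 7.08 in the NC array. MARVELD3 had 6.07 in the siRNA array and 6.15 in the NC array, and the adhesion molecules JAM2 and JAM3 were not detected. JAM3 had 4.07 in the siRNA array and 4.06 in the NC array. TJP1, the zonula occludens scaffold, had 8.42 in the siRNA array and 8.37 in the NC array. The cingulins CGN and CGNL1, which bind TJP scaffolds and actin, differed by 0.12 and 0.23. Polarity genes went both ways. PARD3, the scaffold of the PAR complex, had 6.94 in the siRNA array and 6.69 in the NC array. PARD3B, its paralog, had 6.36 in the siRNA array and 5.94 in the NC array, a difference of 0.43. PARD6B, an adaptor of atypical protein kinase C, had 8.64 in the siRNA array and 8.80 in the NC array. Of the 7 detected scaffold and polarity genes, 6 were higher and 1 lower, beside 49.9% and 48.1% of all detected genes. Their median was 0.12, and none reached 1.5-fold. Among the higher ones, TJP1 and TJP3 each differed by only 0.05.

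Of the 5 detected desmosome plaque genes, 1 passed 1.5-fold. PKP2, the plakophilin of simple epithelia and heart, had 9.31 in the siRNA array and 8.46 in the NC array, a difference of 0.85 or 1.80-fold higher. Of all detected genes, 2.92% were as high. JUP (plakoglobin), which links desmosomal cadherins to the plaque, had 7.49 in the siRNA array and 7.05 in the NC array, a difference of 0.44. PKP4 had 8.43 in the siRNA array and 8.24 in the NC array, and PKP3 differed by 0.09. DSP (desmoplakin), which ties the plaque to keratin filaments, had 8.49 in the siRNA array and 8.64 in the NC array, a difference of -0.15. Thus 4 of the 5 were higher, beside 49.9% of all detected genes, with a median of 0.19. PKP1, the epidermal plakophilin, was not detected.

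**Figure D2:**
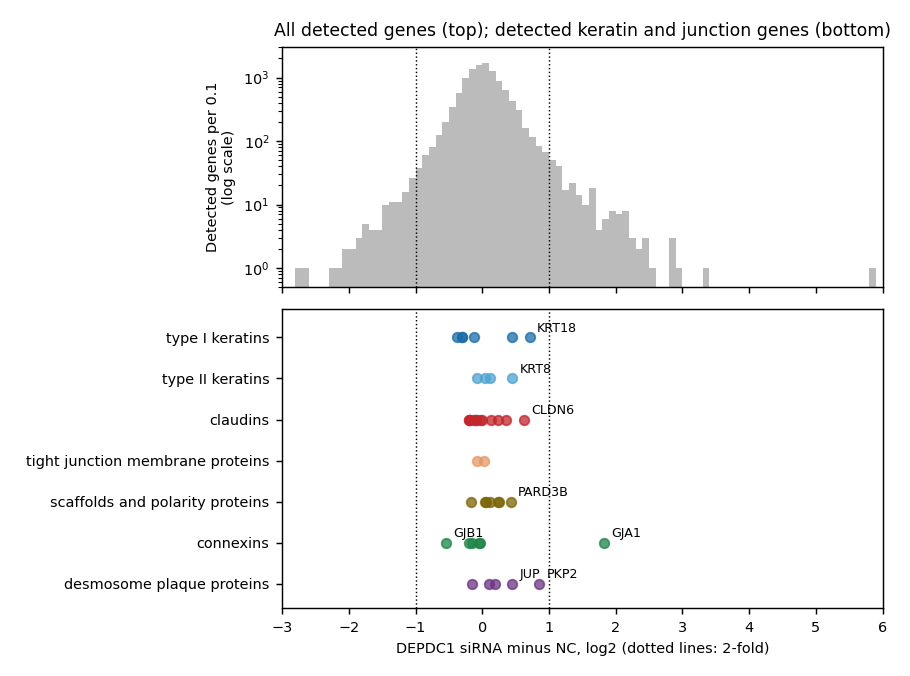
Number of detected genes per 0.1 of log2 difference, siRNA minus NC, on a log scale (top), and the difference of each detected keratin and junction gene by role, 1 point per gene (bottom). Dotted lines mark 2-fold. GJA1 at 1.82 is the 1 point outside them, and the claudins and tight junction proteins lie between -0.20 and 0.62.

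The members were also split by signal. Of the 24 detected members more than 1 log2 unit above the threshold, 16 were higher and 8 lower, with a median of 0.11. The share higher was 66.7%, beside 52.7% of the 8201 genes at such levels. Of the 18 members nearer to the threshold, 5 were higher and 13 lower, with a median of -0.13. The share higher was 27.8%, beside 42.5% of the 3151 genes there. The members are few and were not drawn at random, so these shares are given as a description.

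Related genes outside the choice were described by lists. Their counts stand beside the shares of all detected genes, 6.03% at least 1.5-fold higher, 3.74% at least 1.5-fold lower and 49.9% higher by any amount, and with so few genes a list no separate reading is drawn from them. Of 19 detected adherens junction genes, 2 were at least 1.5-fold higher and none lower, with a median of 0.16. TES, an actin-associated LIM protein, had 10.54 in the siRNA array and 9.86 in the NC array, and CDH2 (N-cadherin) had 8.40 in the siRNA array and 7.75 in the NC array. ZYX (zyxin) differed by 0.39 and CTNND2, a catenin, by -0.37. Of 8 detected desmosomal cadherins and hemidesmosome genes, 7 were higher and 1 lower, with a median of 0.26. DSG2, the desmoglein of simple epithelia, was 1.56-fold higher, with 7.35 in the siRNA array and 6.71 in the NC array. DSC3, a desmocollin, had 4.89 in the siRNA array and 3.90 in the NC array, which is at least 1.17-fold higher against the threshold. CD151, a tetraspanin of hemidesmosomes, differed by 0.46. ITGA6, an integrin chain, was 1.68-fold lower, with 7.93 in the siRNA array and 8.68 in the NC array. Of the 27 other detected polarity and scaffold genes, 3 were at least 1.5-fold higher (DLG5, SYMPK and YBX3, at 0.83, 0.67 and 0.63) and 1 lower (LIN7C, a PDZ adaptor, at -0.90). Their median was 0.10.

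Among 12 detected epithelial transcription and splicing regulators, 1 was at least 1.5-fold higher by its deposited values (TFAP2A) and 1 lower (SNAI2). Their median was 0.19. SNAI2, a repressor of epithelial genes, had 5.07 in the siRNA array and 6.24 in the NC array, 2.25-fold lower. The other listed SNAI, ZEB and TWIST genes did not share that drop. SNAI1 differed by -0.17, TWIST1 by 0.02 and ZEB1 by 0.30. ZEB2 had 4.59 in the siRNA array and 3.65 in the NC array, both under the threshold. TFAP2A, an epidermal transcription factor, had 5.06 in the siRNA array and 4.20 in the NC array, at least 1.32-fold higher against the threshold. Its count at 1.5-fold thus rests on an NC value under the threshold. KLF4 and SPINT1 differed by 0.54 and 0.53. Of 19 detected keratin partners and other intermediate filament genes, 3 were at least 1.5-fold higher and none lower, with a median of 0.09. They were PPL (periplakin, which links keratins to the cell cortex, 7.07 in the siRNA array and 6.22 in the NC array), LMNA (lamin A/C, 7.02 in the siRNA array and 6.30 in the NC array) and NES (nestin, 6.67 in the siRNA array and 5.99 in the NC array). VIM (vimentin), the mesenchymal filament, differed by 0.57, so vimentin and the KRT8 and KRT18 pair were higher side by side.

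**Figure D3:**
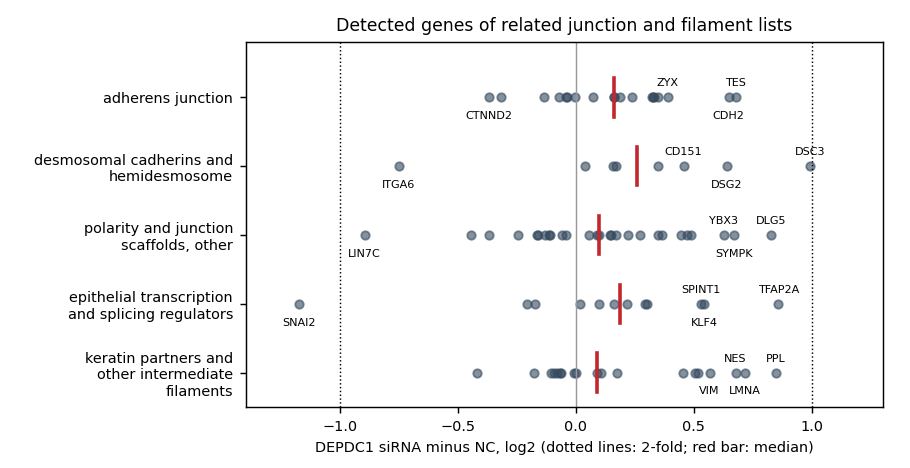
Log2 difference, siRNA minus NC, of each detected gene in 5 lists of related junction, polarity, regulator and filament genes, 1 point per gene, with the list median as a red bar and 2-fold as dotted lines. Medians lie between 0.09 and 0.26, and SNAI2 at -1.17 is the 1 gene past 2-fold.

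Markers of cell types were read in the same arrays. All 10 measured hepatocyte markers were detected, as the line's label implies, and the log2 of their summed level was 13.48 in the siRNA array and 13.84 in the NC array. AFP, APOB and TF were at least 2-fold lower and TTR was at least 2-fold higher, while KRT8 and KRT18 are themselves in that list. Of 14 fibroblast and stellate cell markers, 8 were detected, with a median difference of 0.10. LUM, FBN1 and COL1A2 each exceeded 2-fold upward, and DES, PDGFRA, COL1A1, COL3A1 and COL5A1 differed by -0.07 to 0.11. DCN, PDGFRB, THY1, FAP, ACTA2 and LRAT were under the threshold in both arrays. The log2 of the summed level over all 14 was 10.67 in the siRNA array and 9.20 in the NC array. Such a sum weighs genes by the signal of their probe sets. LUM weighs most in it, with 9.95 in the siRNA array and 7.64 in the NC array. Of 7 cholangiocyte markers, 3 were detected (SPP1, EPCAM and SOX9), while KRT7, CFTR, AQP1 and SCTR were under the threshold. The log2 of the summed level over all 7 was 10.25 in the siRNA array and 10.10 in the NC array. Of 7 stratified epithelium markers, 2 were detected (SFN and KRT14). The log2 of the summed level over all 7, undetected genes included, was 8.09 in the siRNA array and 7.84 in the NC array. SFN weighs most in that sum, with 7.43 in the siRNA array and 6.92 in the NC array. KRT14 differed by -0.31, and the 5 undetected genes by -0.57 to 0.29. The part of such cells in the values of GJA1, KRT8 and KRT18 was not tested.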

How the data were processed

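Total RNA of 2 Huh-7 cultures was measured on 1 array per group. The deposited values were taken as log2 expression from their range, since no label states the unit, and as already normalized between arrays, because the sorted columns differed by at most 0.0997. Transcriptome Analysis Console 3.0 and Affymetrix Expression Console are named, with no stated role, per the submitters' processing notes. Background correction, normalization and filters are not given in the sources used here. RNA was extracted with TRIzol and labelled as biotinylated cRNA, per the labels' protocols.

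Of 33297 probe sets, 19460 listed 1 gene, 1754 several and 12083 none in GEO's platform annotation. Only those with 1 gene were used, with the highest mean of both arrays per gene. Current symbols and biotypes came from RefSeq (GRCh38.p14) by Entrez identifier, which matched 19429 probe sets and all 102 members. Tight junction membrane proteins were summarised apart from scaffolds and polarity proteins. No significance test was run, because 1 array per group leaves no replicate spread, and the number of arrays limits the precision. Where 1 value lay under the detection threshold, a fold past 1.5 is given as a bound. Both values are printed for detected members at least 1.5-fold different and for the highest-level 3 of each role, and other members are named for their role. From each related list up to 4 detected genes of the largest difference are named. In the regulator list the other SNAI, ZEB and TWIST genes are given too. The members and lists were chosen with earlier results of these data known. Calling was run on simulated data with changes set well past the fold counted. That checks the code and not the calls in these 2 arrays. Tools were Python 3.11.15 with pandas 2.3.3. The alternatives covered the detection threshold, the scaling, the probe set per gene and the fold counted.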

Additional observations from a re-analysis of the deposited data

How the results depend on the processing

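No paired analysis was possible because each group had 1 array. GJA1 was the 1 member at least 2-fold higher, and none was at least 2-fold lower, with a detection threshold at the 75th percentile, with no filter, with values raised to the threshold, with arrays centred on their medians, with quantile normalization and with the mean of all probe sets per gene. The difference of GJA1 ran from 1.81 to 1.83. GJA1 has 1 probe set, and both its values lie far above either threshold, so only the scaling could move it. The sorted columns already differed by at most 0.0997, so this narrow range says little about precision. Counted at 1.5-fold, 4 members were higher and 0 lower. The threshold set how many members counted as detected: 15 at the 75th percentile and 102 without a filter, against 42. At the 75th percentile the median of the members was 0.25, against 0.02 over all 5757 genes left, and the medians moved to 0.58 for type I keratins (2 genes) and 0.32 for desmosome plaque proteins (4 genes), as fewer genes were left. KRT8 (0.45) was then the 1 type II keratin and GJA1 (1.82) the 1 connexin. Type I keratins had -0.04 without a filter, and KRT18 had 0.56 as the mean of its probe sets, which ended its call at 1.5-fold. The median of the members was 0.0103 as deposited and 0.0021 with centred arrays. It was -0.0023 with quantile normalization and -0.0363 with no filter, so its sign depends on the scaling and on the filter. CLDN6, PKP2, KRT8 and GJB1 kept their signs in each of these alternatives that detected them. Signal near the threshold limits most keratins and claudins, whose folds can be understated.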

Other observations

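Among symbols left out of the choice, 4 keratin pseudogenes had single-gene probe sets. The 2 probe sets of KRT17P5, a copy of KRT17, had 5.28 and 5.47 in the siRNA array and 4.60 and 4.86 in the NC array, differences of 0.68 and 0.60. KRT17 had no single-gene probe set in the annotation used, so the signal cannot be assigned between gene and copy. KRT18P55 differed by -0.16, and KRT18P59 and KRT8P41 were not detected. KRT10-AS1, transcribed opposite KRT10, had 4.34 in the siRNA array and 3.73 in the NC array, both under the threshold, while KRT10 had 4.30 in the siRNA array and 4.16 in the NC array.

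Identical values in both arrays were common. Of 33297 probe sets, 1940 (5.83%) had exactly the same value in each, as did 5 of the 102 members (KRT7, KRT34, KRT75, CLDN2 and CLDN24), none of them detected. A difference of 0 for these genes is thus a property of the deposited values and no measure of precision. KRT39, KRT40 and MARVELD2 each had 2 probe sets with identical values, which are no second measurement.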
